A study of Orbicella faveolata with 56 samples.

Results

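The transcripts described here are the 200 of 17468 in Orbicella faveolata with the largest share of their variation in level lying between coral genotypes. Of the 87440 rows of the host table, 18668 had a mean CPM of at least 5, where CPM is a row's estimated count per 1000000 counts of its library. Of these, 1200 had a count of 0 in some library, which left 17468. For each of them the share of the total sum of squares of log2(CPM + 1) lying between the 12 genotypes was computed, and the 200 with the largest share were kept. The measured levels therefore chose the members, and their spread over genotypes is described below without a test.

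The libraries were RNA sequencing libraries of coral tissue from fragments of 14 corals, 8 of inshore and 6 of offshore origin in the Florida Keys. Fragments of each coral went inshore and offshore (the transplant site), and were afterwards brought over 7 days to 30 °C (the control) or 32 °C, where they stayed for 6 days. Matched libraries numbered 8 for inshore-origin corals in each of the 4 combinations of site and temperature. For offshore-origin corals there were 6 in each combination except the inshore site at 32 °C, which had 5, so 55 libraries entered in all. The inshore genotypes are labelled In1, In2, In4, In5, In6 and In7 and the offshore genotypes O1 to O6. In1 is the label shared by 3 corals (A3, A5 and A6, 12 libraries), O3 had 3 libraries, and each of the other 10 genotypes was 1 coral with 4 libraries. For every genotype but In1, genotype and coral therefore cannot be told apart. The inshore corals came from 3 collection sites and all offshore corals from 1, so offshore origin and that site cannot be told apart either. Fragments of a coral are not separate animals. The labels call the material coral tissue, which holds animal cells and algal symbionts, and the files pair identifiers with no gene names, so the tissue could not be checked against marker genes and no role can be given to a member. In such bulk samples fewer cells of a type and less RNA per cell cannot be told apart.

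A reef coral is a colony of genetically identical polyps, and pieces broken from it regrow as the same genotype, often called a genet. Colonies founded by different larvae differ in their DNA, and both regulatory variants and the presence of different gene copies can give genets different transcript levels. Reads can also be assigned differently where a genet's sequence departs from the reference assembly, so a level in a table of this kind can reflect sequence as well as abundance.

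Host totals ran from 2850075 to 7239229 estimated counts per library with a median of 5021488, and symbiont totals from 2865 to 1801987. Of the 55 libraries, 8 stood apart, having a mean correlation with the others over 3 median absolute deviations below the median, and 5 of them were in 30 °C groups. Without these 8, 154 of the 200 members were chosen again. Every pair of libraries differed by more than sampling noise, with a chi-square of at least 3.82 per degree of freedom.

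Among the members the share lying between genotypes ran from 93.4 to 98.8% with a median of 94.9%, and it was above 95% in 96 members and above 97% in 28. The other 17268 transcripts past the level filters had a median share of 41.6%, from 2.48 to 93.4%. The last but one member (OFAVBQ_DN215243_c0_g3, 93.3670%) and the last (OFAVBQ_DN216809_c0_g1, 93.3663%) were hardly different from the first transcripts left out, OFAVBQ_DN221935_c2_g2 (93.3581%) and OFAVBQ_DN212065_c3_g1 (93.3570%). The choice of 200 thus marks no break in the distribution. Every member has a large share between genotypes by the rule itself. No more than 6.45% of a member's sum of squares was left after coral, temperature and site, with the In1 corals fitted separately. The rule alone keeps that remainder small, so it is no further evidence about the members.

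**Figure D1:**
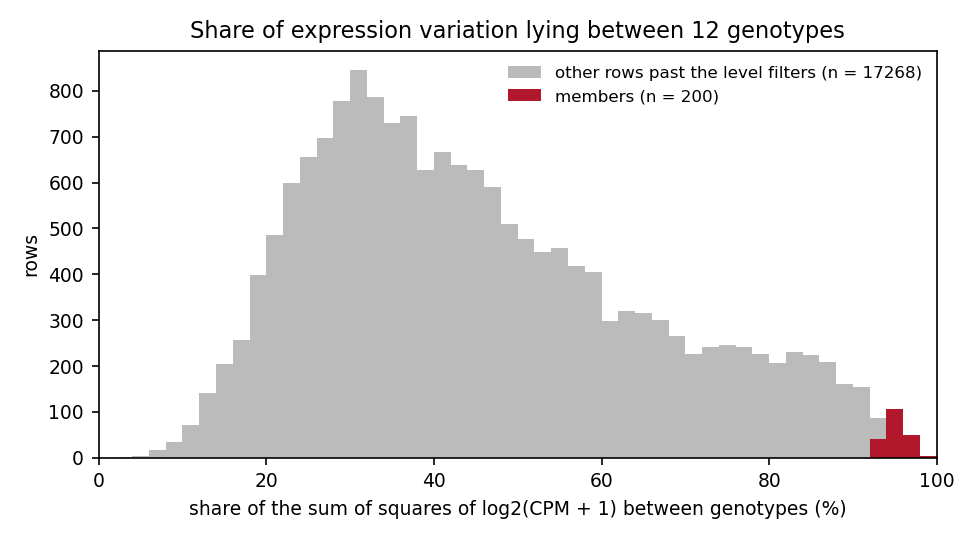
Number of host transcripts (y axis) by the percentage of their sum of squares of log2(CPM + 1) lying between the 12 genotypes (x axis), with the 200 members in red and the other 17268 transcripts past the level filters in grey. The members fill the end above 93.4%, and the grey transcripts have their median at 41.6%.

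The members differed from other transcripts in how far genotypes lay apart and little in how tightly libraries of a genotype agreed. The standard deviation (SD) of log2(CPM + 1) between genotypes had a median of 1.25 in members and 0.26 in the others. The SD within genotypes had medians of 0.30 in both sets. From the lowest to the highest genotype mean, members spanned a median of 14.4-fold on the CPM + 1 scale, from 2.69-fold to 312.5-fold, where the other transcripts spanned a median of 1.82-fold. The span exceeded 16-fold in 86 members and 64-fold in 6, and stayed under 4-fold in 8. The libraries did not overlap in a median of 45 of the 66 pairs of genotypes for a member, with a range from 17 to 57, against 8 for other transcripts. All of these measures come from the levels that chose the members and show what the choice selected.

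The member with the largest share, OFAVBQ_DN212148_c2_g2 (98.8%), had a graded set of levels. It was high in In5, where the 4 libraries gave 127, 129, 132 and 136 CPM, and low in In2, with 0.93, 2.38, 2.78 and 3.08 CPM. The 12 In1 libraries ran from 80.5 to 153 CPM with a median of 104. Mean levels were 122 ± 26.1 CPM in O1, 98.6 ± 16.3 in O6, 78.1 ± 8.38 in O4, 77.6 ± 8.75 in O5 and 77.5 ± 5.80 in In7 (SD, n = 4 each). At the other end, means were 3.37 ± 0.65 CPM in In6, 3.96 ± 0.75 in O2 and 10.4 ± 1.52 in In4 (SD, n = 4 each), and 17.8 ± 3.18 in O3 (SD, n = 3). The 7 genotypes of the upper set thus stood clear of the 5 genotypes of the lower set, with the largest step between neighbouring means being 2.07 on the log2 scale. Inshore and offshore genotypes occurred in both sets. Within the upper set O4, O5 and In7 had overlapping libraries, and so had O1 with O6 and with In5. The range of the In1 libraries overlapped that of every other genotype in the set.

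A second member, OFAVBQ_DN224887_c0_g1 (98.2%), was near the floor in 3 offshore genotypes. The 4 O6 libraries gave 0.37, 0.56, 0.89 and 0.90 CPM, and the means of O1 and O4 were 0.94 ± 0.41 and 1.5 ± 0.38 CPM (SD, n = 4 each). The other 3 offshore genotypes were not low, since O2 averaged 23.2 ± 1.97 CPM and O5 13 ± 0.74 (SD, n = 4 each), and the 3 O3 libraries gave 27.6, 29.7 and 35.5 CPM. The inshore genotypes had means from 6.74 ± 1.22 CPM in In5 to 25.6 ± 2.91 in In7 (SD, n = 4 each). The 3 low genotypes did not overlap any of the other 9. In the median library 1 CPM stands for 5.02 estimated counts, so the order of O1, O4 and O6 among themselves rests on few reads.

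In OFAVBQ_DN221954_c1_g1 (98.2%) the low genotypes were a pair of inshore ones. In4 gave 0.19, 0.19, 0.20 and 0.36 CPM over its 4 libraries, and In7 averaged 0.75 ± 0.28 CPM (SD, n = 4). The remaining genotypes ran from 7.96 ± 1.70 CPM in O4 to 33.6 ± 4.55 in O1 (SD, n = 4 each), and the In1 libraries from 28.7 to 49.3 CPM. No library of another genotype came below 5.65 CPM, the lowest value in O3, so the low pair stood clear of all others.

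The fourth member, OFAVBQ_DN207774_c5_g1 (98.1%), had 2 levels with nothing between them. In2, In7, O1, O2, O5 and O6 formed the upper level, with means from 20.8 ± 2.54 CPM in O5 to 49 ± 5.81 in In7 (SD, n = 4 each). Their libraries ran from 17.6 CPM in In2 to 56 CPM in In7. The other 6 genotypes had means from 1.07 ± 0.33 CPM in In5 to 1.61 ± 0.38 in In4 (SD, n = 4 each), with no library above 2.11 CPM. Each level held both origins, and the 3 In1 corals, with libraries from 0.35 to 2.11 CPM, were all on the lower one. The lower genotypes overlapped one another and had no order beyond their spread.

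**Figure D2:**
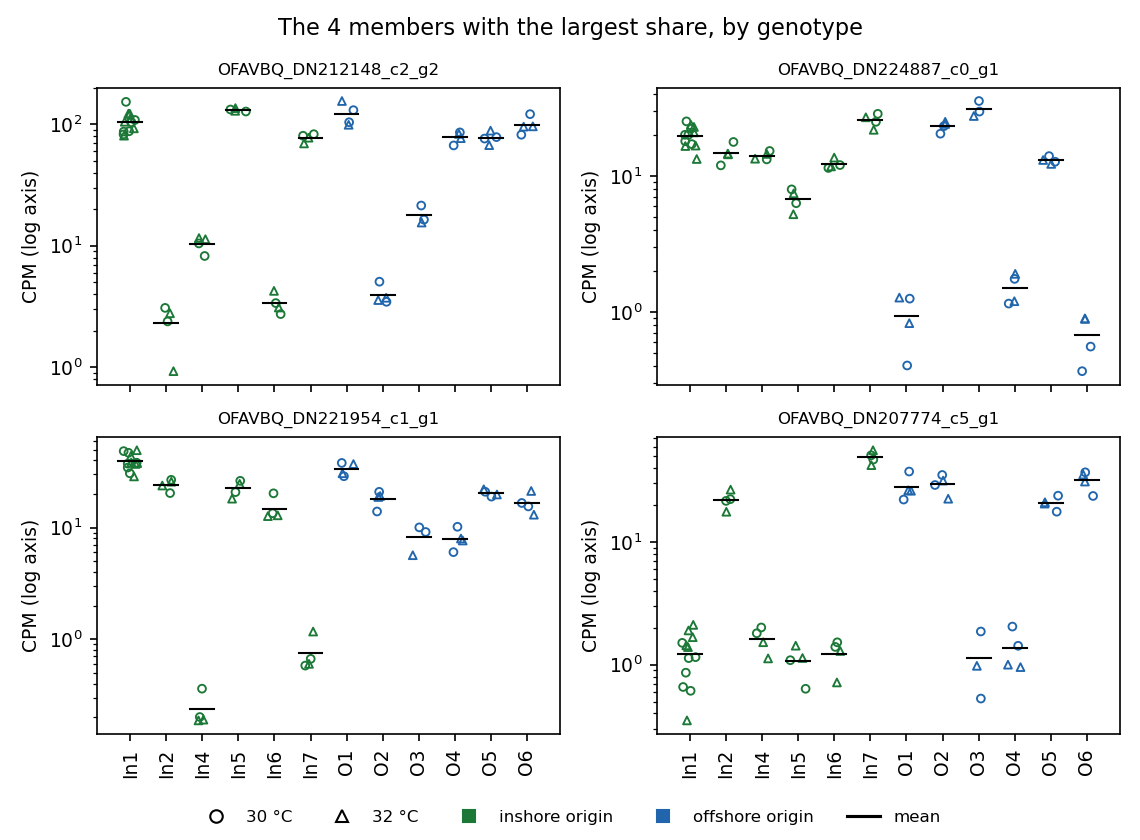
Level in CPM (y axes, log scale) of the 4 members with the largest share in each library, by genotype (x axes), with circles for 30 °C, triangles for 32 °C, green for inshore and blue for offshore origin, and a line at the genotype mean. Libraries of a genotype cluster at both temperatures, and the low genotypes differ from member to member (In2, In6 and O2 in OFAVBQ_DN212148_c2_g2, and O1, O4 and O6 in OFAVBQ_DN224887_c0_g1).

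The widest spans began near 0. OFAVBQ_DN199434_c1_g1, with the largest span (312.5-fold), was lowest in In5, where the libraries gave 0.82, 1.32, 1.69 and 1.96 CPM. O1, O2, O3 and O4 were intermediate, with O1 libraries at 9.48, 15.5, 15.8 and 24.3 CPM. The remaining genotypes had means from 392 ± 148 CPM in In4 to 603 ± 29.7 in In7 (SD, n = 4 each), and the In1 libraries ran from 462 to 1958 CPM. The intermediate genotypes were all offshore, but O5 and O6 were in the high set.

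OFAVBQ_DN214125_c5_g3, with a span of 244.7-fold, was high in In1, In2, O1 and O5 only. The O1 libraries gave 251, 334, 346 and 365 CPM, and In1 libraries ran from 53.6 to 242 CPM. In the other 8 genotypes no library exceeded 2.79 CPM, and the O2 libraries gave 0.17, 0.19, 0.40 and 0.53 CPM. Of the values of this transcript, 1.82% were not whole numbers, against a median of 70% of a member's values.

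The narrowest spans were those of OFAVBQ_DN225423_c3_g1 (2.69-fold) and OFAVBQ_DN224063_c2_g1 (2.94-fold), which met the rule because their libraries lay close together within genotypes. OFAVBQ_DN225423_c3_g1 ran from 198.6 ± 16.1 CPM in O5 to 540 ± 92.1 in O1 (SD, n = 4 each). OFAVBQ_DN224063_c2_g1 ran from 231 ± 18.4 CPM in In2 (SD, n = 4) to 681 ± 79.3 in O3 (SD, n = 3). In In5 the 4 libraries of this second transcript lay between 250 and 257 CPM.

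Over the 200 members, no single genotype accounted for the pattern. The highest mean was in In1 for 38 members, in O1 and in O6 for 22 each, in In7 for 20, in In5 for 19, in O4 for 17 and in O2 for 15. It was in In2 and in O5 for 13 each, in O3 for 10, in In4 for 7 and in In6 for 4. The lowest mean was in In6 for 33 members, in O2 for 24, in O4 for 18, in O5 for 17 and in In2 for 16. For In1 it was 12 and for In7 8, the fewest. In1 had more libraries in the choice than any other genotype. When In1 was taken from coral A3 alone, A5 alone or A6 alone and the 200 were chosen again, In1 was highest in 18, 18 and 28 of them.

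The genotype means of a member could be divided at their largest gap. That gap left 1 genotype by itself in 50 members, on the low side in 31 and on the high side in 19, and a pair of genotypes in 40. In the other 110 members at least 3 genotypes stood on each side. The gap exceeded 2-fold in 147 members. Every library of the highest genotype lay above all other libraries in 45 members (2.68% of the transcripts past the filters), and every library of the lowest genotype below all others in 53 (2.95%). One or the other held in 86 members (5.42%). These shares over all transcripts are given for scale only, since the same levels chose the members.

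**Figure D3:**
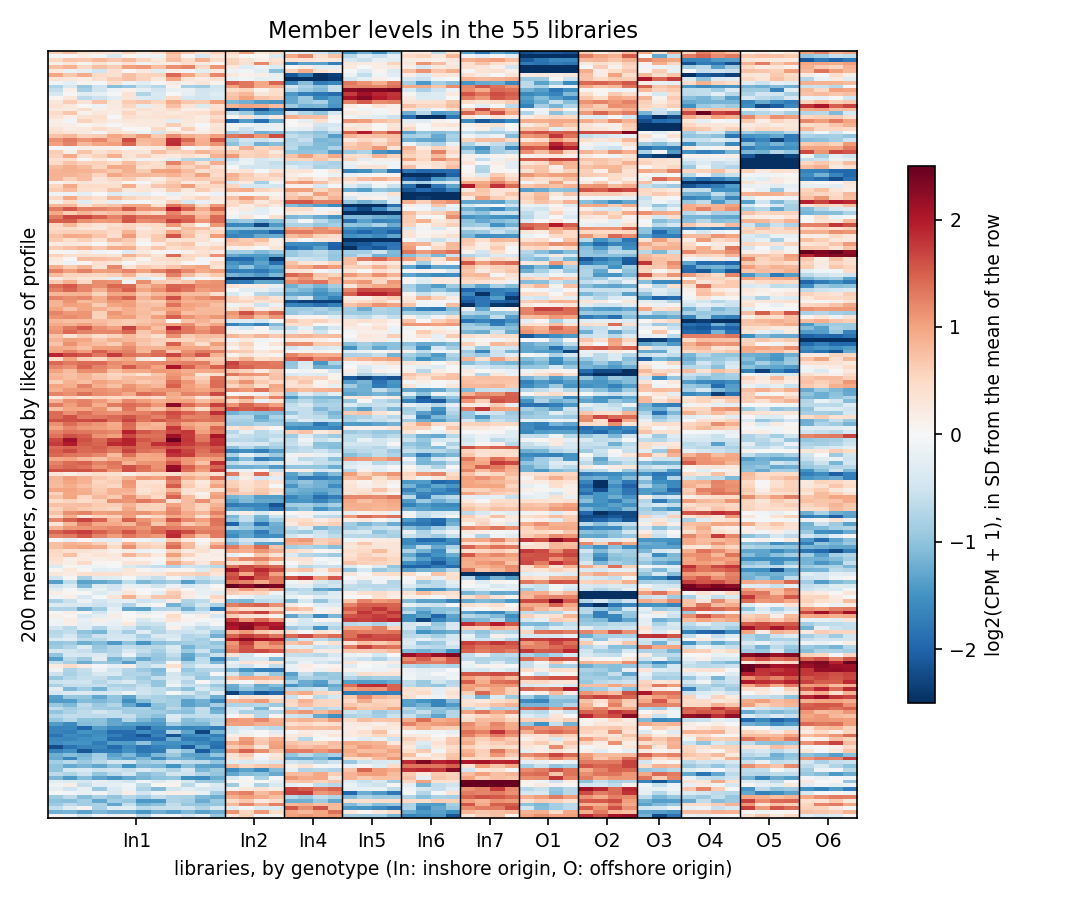
Level of each of the 200 members (lines of the picture, ordered by likeness of profile) in the 55 libraries (columns, by genotype), in SD of log2(CPM + 1) from the mean of the line, red for higher and blue for lower. Columns of a genotype share their colours from library to library, In1 across 12 columns, and no pair of genotypes has the same column pattern.

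Low levels were common. A genotype mean under 1 CPM occurred in 75 members and one under 2 CPM in 122, while 29 members had at least 5 CPM in every genotype. The highest genotype mean reached 100 CPM in 23 members. CPM is not divided by transcript length, so levels are compared here between genotypes and not between transcripts. A member had to have a count above 0 in all 55 libraries, which kept out transcripts missing altogether from a genotype. When zeros were allowed, 15 of the 200 remained among the 200 with the largest share.

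Over the members together, each library was nearest to its own genotype. The distance, the median absolute log2 difference over members between a library and the mean of the other libraries of its genotype, had a median of 0.21 and did not exceed 0.43. The distance to the nearest other genotype was at least 0.62 and had a median of 0.86. Its own genotype was nearest for 55 of 55 libraries, against 45 of 55 when the other 17268 transcripts were used. In this measure the members were chosen from the same libraries, so the figure for the members is a description of the choice.

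The choice was therefore repeated with libraries held out. The 200 transcripts chosen by the same rule from the 28 libraries at 30 °C included 123 of the members. In the 27 libraries at 32 °C, which that choice did not use, these 200 had a median of 96.6% of their sum of squares between genotypes, from 75.9 to 99.6%, against 60.2% over all transcripts eligible. In the reverse direction 133 members were chosen again, and the median in the libraries at 30 °C was 96.0% against 61.6%. Choosing at the inshore site gave a median of 96.2% at the offshore site against 59.3%, with 123 members shared. Choosing at the offshore site gave 96.3% against 60.4%, with 136 shared. The fragments held out came from the same corals, so these values describe how repeatable a coral's levels were and not how a genotype behaves in other corals.

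In1 is the only genotype with more than 1 coral. Over the members, the median absolute log2 difference between corals was 0.11 for A3 and A5, 0.17 for A3 and A6 and 0.19 for A5 and A6. In the other transcripts it was 0.11, 0.16 and 0.16. Because all 3 corals took part in the choice, the 200 were also chosen with In1 taken from a single coral. The 2 corals left out then lay 0.12 to 0.21 from that coral over the 200 transcripts, and 0.83 to 0.91 from the nearest other genotype. Of the other transcripts past the filters, the same corals lay 0.11 to 0.16 from the chosen coral and 0.21 to 0.22 from the nearest other genotype. A coral that did not take part in the choice was thus about as close to its In1 neighbour over these transcripts as over the rest. The larger distance to other genotypes was not held out. The choice still used the spread among those genotypes and the chosen In1 coral, so that distance describes the choice.

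A test between the 3 In1 corals, with site and temperature as covariates, called 0 of the 183 members that entered it (edgeR quasi-likelihood F test, Benjamini-Hochberg adjusted p under 0.05), where 0.158% of the 27290 transcripts tested were called and 0.132% of those past the level filters. The unadjusted p was under 0.05 for 15 members (8.20%) and for 9.19% of all transcripts tested. The likelihood ratio test of DESeq2 called 2 members (1.09%) and 0.916% of all, so each share was near its background. The smallest p belonged to OFAVBQ_DN215243_c0_g3 and OFAVBQ_DN203295_c1_g1. For OFAVBQ_DN215243_c0_g3 the A3 libraries gave 13.2, 17, 19.3 and 19.4 CPM, the A5 libraries 12.6, 13.3, 15.5 and 17, and the A6 libraries 6.87, 7.30, 7.72 and 10.5 (edgeR adjusted p = 0.075). A6 lay below the other two corals without overlap. For OFAVBQ_DN203295_c1_g1 the A3 libraries gave 14.2 to 16.8 CPM, the A5 libraries 31 to 39.6 and the A6 libraries 13 to 32 (edgeR adjusted p = 0.105). A3 and A5 did not overlap, and A6 overlapped both. The rule leaves members little room to vary within a genotype, so these counts describe what was left. Without the filter on low counts 7 of 200 members (3.5%) were called, and 2.96% of the 74268 transcripts tested.

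Origin took a small part of the spread among genotypes. In a median of 5.30% of the between-genotype sum of squares the difference was between inshore and offshore origin, from 0.0075 to 49.9%, against a median of 5.17% in the other transcripts. The offshore mean was higher in 91 members and the inshore mean in 109, and the highest genotype was inshore in 101 and offshore in 99. In 0 members did the genotype means of the 6 inshore and 6 offshore genotypes fail to overlap, where 0.183% of all transcripts past the filters had such separation. Within the 6 inshore genotypes, the 3 collection sites took a median of 37.8% of the sum of squares in members and 35.9% in other transcripts. With so few genotypes per site such a share is large even without a site difference, so it cannot be set beside the origin share. No genotype but In1 came from the site of the In1 corals, so In1 and that site cannot be told apart. Over members, the median distance was 1.02 for the 36 pairs of genotypes from different origins and 1.01 for the 30 pairs from the same origin. The nearest pairs, In6 with O3 and In6 with O2 (0.73 each), crossed origins, and so did the farthest, In1 with O2 (1.61).

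Tested over genotype sums, 6 against 6, origin called 0 of 200 members (edgeR, adjusted p under 0.05), where 0% of the 39603 transcripts tested were called. The unadjusted p was under 0.05 for 11 members (5.5%) and for 5.15% of all transcripts tested, nearly the same share. DESeq2 also called 0 members, with 59 transcripts called in all. Fitted differences had a median size of 0.47 on the log2 scale against 0.12 in the other transcripts past the filters, and 38 members (19%, against 1.21%) lay beyond 2-fold. Members were chosen for their spread over genotypes, which widens any split of the genotypes, so these sizes are no result about origin. The smallest p belonged to OFAVBQ_DN192229_c2_g1, which had genotype means of 4.88 to 28.9 CPM inshore and 1.39 to 5.89 CPM offshore. Its offshore minus inshore difference was -2.10 ± 0.56 (log2 ± SE, edgeR adjusted p = 0.924). Only O4 among the offshore genotypes reached the inshore range. OFAVBQ_DN209098_c0_g1 followed, with genotype means of 2.08 to 14.1 CPM inshore and 3.96 to 113 CPM offshore and a difference of 2.92 ± 0.89 (log2 ± SE, edgeR adjusted p = 0.924). It was high in O4 and O2, with means of 113 ± 23.8 and 80.9 ± 33.4 CPM (SD, n = 4 each), and O6, with 25.1 ± 5.08 CPM, also lay above all inshore means. O1, O3 and O5 lay within the inshore range.

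The median heat change of the members was of like size to that of other transcripts. With coral as a block, 1 of 200 members was called between 32 and 30 °C (edgeR, adjusted p under 0.05) and none of them rose, where 3.24% of the 35219 transcripts tested were called and 4.70% of those past the level filters. The unadjusted p was under 0.05 for 16 members (8.0%) and for 15.7% of all transcripts tested. Fitted changes had a median size of 0.078 on the log2 scale in members and 0.084 in other transcripts past the filters. In no member did the change pass 2-fold, and the largest was 0.41. Set beside its own span over genotypes, a member's heat change had a median of 2.0% of that span and was at most 9.09% of it. Heat accounted for a median of 0.071% of a member's sum of squares and for 1.16% in other transcripts, a share the rule itself presses down. The rule favours little variation within genotypes, where heat changes lie. The lower counts and the small part of the span are therefore no result about the members, and the same limit holds for the site.

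The member called was OFAVBQ_DN195982_c0_g1, which fell by 0.41 ± 0.12 (log2 ± SE, edgeR adjusted p = 0.049), or 1.33-fold, and was lower at 32 °C in 22 of 27 pairs of fragments of a coral at a site. In O6 it gave 81.7 CPM at 30 °C and 45.5 at 32 °C at the inshore site, and 84.1 and 76.2 at the offshore site. In O1 the values were 47.9 and 32.3 CPM at the inshore site and 51.7 and 25.5 at the offshore site. In In1 they ran from 19.3 to 35.2 CPM over 6 libraries at 30 °C and from 16.5 to 31.2 over 6 at 32 °C, with overlap. Genotypes with low levels, such as In4 (3.87 ± 0.89 CPM) and O4 (2.18 ± 0.88 CPM, SD, n = 4 each), stayed low at both temperatures. All libraries of In4, In5, In7, O4 and O5 at 30 °C lay below every O6 library at 32 °C. The call was lost when any of 10 corals was left out (A3, B1, B3, B4, B6, C1, C2, C3, C5 or C6). It was also lost with a term for library numbers 1 to 16. Those libraries were all at 30 °C, so library number and temperature are partly confounded. With that term 0.741% of all transcripts tested were called for heat, and 0.118% in library numbers 17 to 56 alone. In numbers 17 to 56 the unadjusted p (edgeR) was under 0.05 for 15 members (7.5%) and for 9.59% of all transcripts tested. Leaving out the 8 libraries set apart by their correlations, 3 members were called (1.5%, against 5.61% of all transcripts tested there), and OFAVBQ_DN195982_c0_g1 was not among them.

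Changes with the transplant site were of like size. Between the offshore and the inshore site 0 of 200 members were called (edgeR, adjusted p under 0.05), where 0.386% of 35219 transcripts were called and 0.0973% of those past the level filters. The unadjusted p was under 0.05 for 9 members (4.5%) and for 5.51% of all transcripts tested. DESeq2 called 0 members. Fitted changes had a median size of 0.062 on the log2 scale, against 0.057 in other transcripts past the filters, and the largest was 0.34. The smallest p belonged to OFAVBQ_DN222470_c7_g1, with a change of -0.34 ± 0.11 (log2 ± SE, edgeR adjusted p = 0.500), with 19 of 27 pairs of fragments lower offshore. For comparison, its genotype means ran from 0.88 ± 0.22 CPM in In6 (SD, n = 4) to 25.8 ± 12.2 in O3 (SD, n = 3). OFAVBQ_DN216589_c6_g4 followed with 0.28 ± 0.11 (edgeR adjusted p = 0.756), with 20 of 27 pairs higher offshore. It had 0.24 to 1.97 CPM in the In1 libraries and at least 5.55 CPM in every library of the other genotypes.

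**Figure D4:**
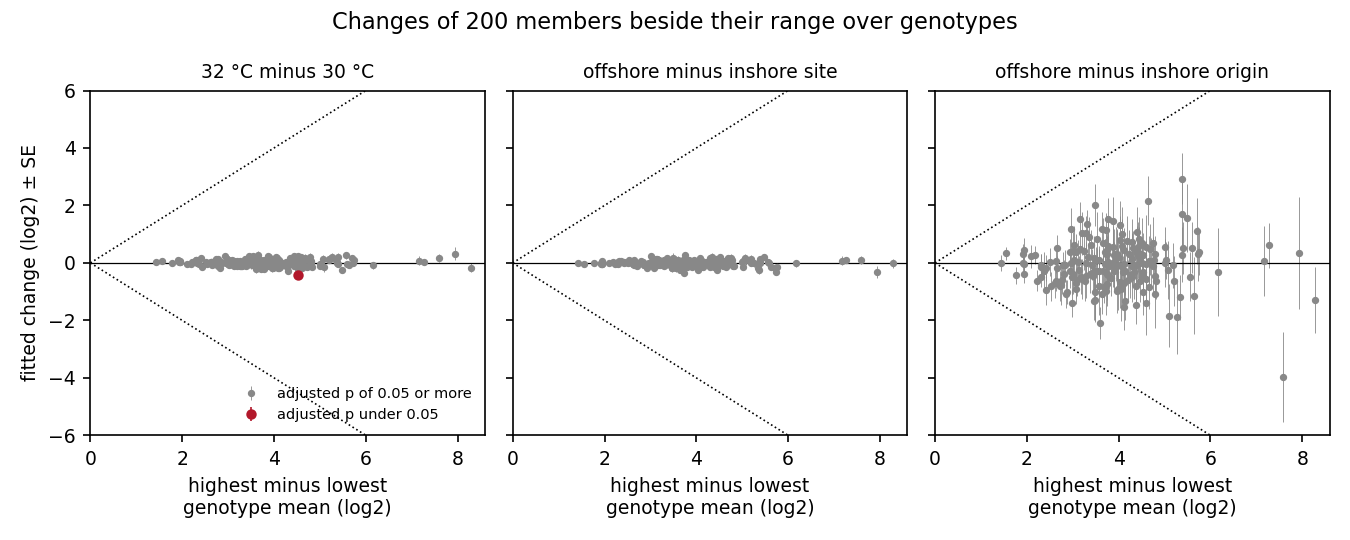
Fitted log2 change of each member with its SE (y axes) for 32 against 30 °C, offshore against inshore site and offshore against inshore origin, beside the log2 span of its genotype means (x axes), with dotted lines where change and span are equal. Changes with heat and site stay within 0.41 and 0.34 of 0, the only point past the threshold is red, and origin differences reach 3.97.

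The difference in site change between corals of inshore and offshore origin called 0 of 200 members (edgeR, adjusted p under 0.05), where 0.324% of 35219 transcripts were called and 0.0801% of those past the level filters. The unadjusted p was under 0.05 for 27 members (13.5%) and for 8.67% of all transcripts tested. DESeq2 called 1 member (0.5%) and 0.446% of all. The fitted differences leaned to one side. They were below 0 in 154 members with a median of -0.14 on the log2 scale, while the median of the other transcripts past the filters was -0.00093. In inshore-origin corals the mean of paired fragments was lower at the offshore site for 153 members, with a median change of -0.09, and 46.6% of other transcripts were higher there. In offshore-origin corals 116 members were higher at the offshore site, with a median of 0.03, and 43.7% of other transcripts were higher. The 3 In1 corals share a genotype but entered the fit and these means as separate corals. A coral could also give a pair at each temperature. In1 therefore weighs more than any other inshore genotype here, and genotype is not the unit as it was for origin.

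The ratio of symbiont to host counts moved along with this comparison. From the inshore to the offshore site it changed by -1.82 ± 2.60 on the log2 scale in the 8 inshore-origin corals and by -7.24 ± 0.60 in the 6 offshore-origin corals (mean ± SD). With that ratio as a term in the fit, 134 members were below 0 and the median was -0.13. In that fit the unadjusted p (edgeR) was under 0.05 for 9 members (4.5%) and for 4.001% of all transcripts tested. Without the term it was under 0.05 for 27 members (13.5%) and for 8.67% of all. The lean in sign remained with the term. In offshore-origin corals the ratio changed strongly with the site, so the term and this comparison are partly confounded. In library numbers 17 to 56 alone, without the term, the unadjusted p (edgeR) was under 0.05 for 5 members (2.5%) and for 3.59% of all. The part of the symbiont ratio in the lean or in these shares was not tested. Members are not replicates, and the lean was seen after the values were known. The smallest p in this comparison belonged to OFAVBQ_DN204544_c2_g3, with a difference of -0.92 ± 0.23 (log2 ± SE, edgeR adjusted p = 0.069), and OFAVBQ_DN206805_c0_g2 with -0.72 ± 0.21 (edgeR adjusted p = 0.204). OFAVBQ_DN204544_c2_g3 had genotype means from 0.98 ± 0.56 CPM in In4 to 36.4 ± 14.1 in O4 (SD, n = 4 each) and 35.5 to 76.8 CPM in the In1 libraries, so the spread over genotypes was wider than any change with site. Across the 55 libraries no member had a correlation above 0.7 in size with the symbiont ratio, the range being -0.43 to 0.54. As a description, 38.5% of that ratio's own sum of squares lay between genotypes.

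The assembly offers one view of what members share beyond the rule. Identifiers name an assembly component, a group of sequences the assembler joined, and 52.5% of members had another row in their component, against 51.7% of other transcripts. Such rows can be copies or alleles of 1 gene, among which reads may be divided. Estimated counts were not whole numbers in 57.5% of the members' values and 49.3% of the others', so many reads were shared among rows, and the levels of such members are uncertain to that extent. For 17 members another row of the component also passed the filters, which gave 16 distinct pairs. In 7 of these the genotype means of the pair were negatively correlated over the 12 genotypes. Component pairs of other transcripts were not compared, and over all pairs of members the median correlation was 0.03. The count of 7 is therefore a description and no result about the members.

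The most negative pair was OFAVBQ_DN202327_c0_g2, a member, with OFAVBQ_DN202327_c0_g3 (r = -0.68 over 12 genotype means). In O3 the member had 1.61 ± 0.69 CPM and its partner 60.2 ± 14.9 (SD, n = 3). In O4 the member had 31.6 ± 4.49 CPM and the partner 6.47 ± 1.45, and in In4 they had 37.5 ± 9.44 and 11 ± 1.73 (SD, n = 4 each). The order was not reversed throughout, since O1 had 17.8 ± 3.90 CPM of the member and 51.8 ± 15.1 of the partner (SD, n = 4). When the pair was summed, the share between genotypes fell from 94.1% for the member and 92.1% for the partner to 71.4%, and the span of genotype means from 4.07 and 3.03 to 1.51 on the log2 scale.

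The next pair was OFAVBQ_DN200793_c3_g2, a member, with OFAVBQ_DN200793_c3_g1 (r = -0.45 over 12 genotype means). The member had 1.97 CPM on average in In1, from 1.07 to 2.82, where its partner had 16.7, from 12 to 25.9. In In7 they had 20.2 ± 4.62 and 9.11 ± 1.32 CPM (SD, n = 4). Summed, their share was 77.8%, against 95.6% and 83.0% apart. In most of the 16 pairs the sum had a lower share than the member. A partner that is no member has a lower share than its member by the rule. A lower share of the sum is therefore largely built in and is no result about the members. The lowest was 35.6%, for OFAVBQ_DN222815_c1_g1 (94.2% alone) with OFAVBQ_DN222815_c1_g2 (r = -0.10). That partner alone had 36.6% and a span of 0.37 on the log2 scale. Only for OFAVBQ_DN225426_c2_g1 and OFAVBQ_DN225426_c2_g3, both members and alike over genotypes (r = 0.996), was the share of the sum higher, at 96.4%. Both of these pairs were chosen for the text after their values were seen. With all components summed and the choice repeated, 157 of the 200 components chosen were those of members.

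**Figure D5:**
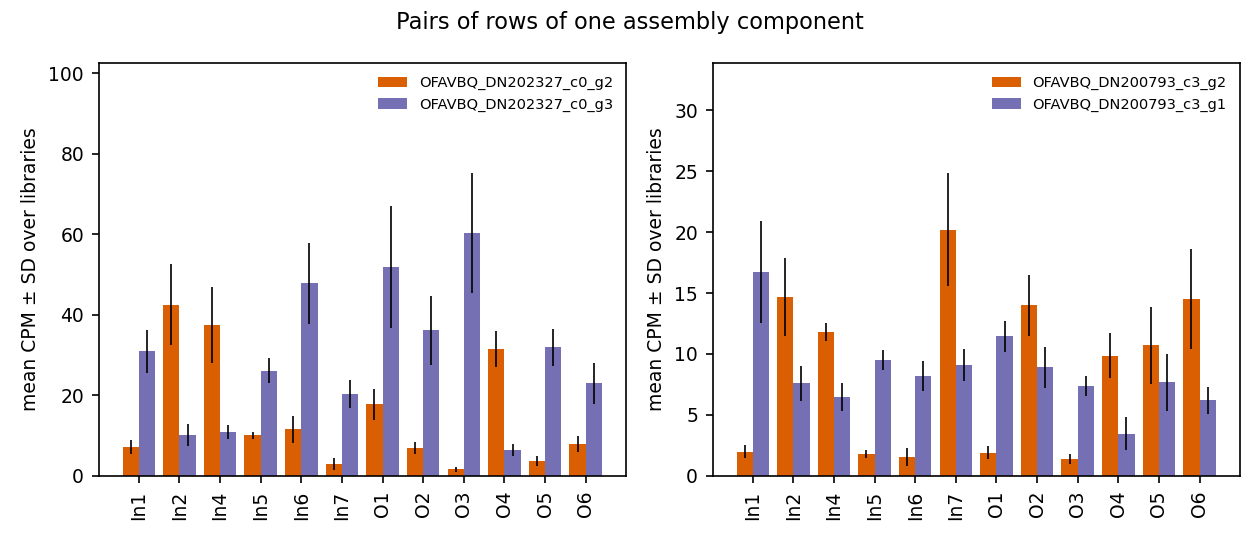
Mean level in CPM with its SD over libraries (y axes) of the rows of 2 assembly components, by genotype (x axes), with a colour for each row. Some genotypes with a high bar for one row have a low bar for the other, as in O3, where OFAVBQ_DN202327_c0_g2 had 1.61 CPM and OFAVBQ_DN202327_c0_g3 60.2 CPM.

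Members seldom shared a profile. Over the 12 genotype means, 14 of the 19900 pairs of members had a correlation above 0.95, involving 18 members, while the most negative was -0.90. Of the 14, 1 was within a component and 3 within an assembly cluster. The likest pair outside a cluster, chosen after its values were seen, was OFAVBQ_DN206759_c0_g1 with OFAVBQ_DN224191_c2_g2 (r = 0.993). These were low in O5 alone, with 12.3 ± 1.09 and 20.8 ± 3.51 CPM there (SD, n = 4). The next genotype up was In4 in each, with 60.4 ± 3.61 and 81.0 ± 10.3 CPM (SD, n = 4). The member with the largest share, OFAVBQ_DN212148_c2_g2, was most like OFAVBQ_DN224239_c3_g2 (r = 0.968), also chosen after its values were seen. The median correlation over all pairs of members was 0.03.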

How the data were processed

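The table deposited by the authors holds estimated counts per assembled isoform, without normalization. The table name refers to kallisto. Per the submitters' processing notes, the tools included Trimmomatic 0.36 and RSEM. The reference assembly is not given in the sources used here. Each table has 56 columns, and 1 column in each matched no label and was not used. Values that are not whole (tolerance 0.001) were taken as reads shared among rows, and all values were rounded for count tests.

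CPM used the plain column sum, with a pseudocount of 1 for log2. Distances, correlations and shares were computed in Python 3.11.15. Tests were edgeR 4.0.16 quasi-likelihood F tests in R 4.3.3 over all rows, with TMM factors, filterByExpr with a minimum count of 10, Benjamini-Hochberg adjustment at 0.05 and coral as a block, because its fragments are one animal. Origin used counts summed per genotype. The fits for heat, site, origin and the In1 corals were checked on simulated data. DESeq2 1.42.0, other scalings, filters, blocks and left-out corals were tried as alternatives. For heat, site and site by origin, p-values measure the spread among fragments within corals. For origin they measure the spread between genotypes, and for the In1 corals the spread among libraries within those corals.

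The members, comparisons and alternatives were chosen with earlier results of these data known. Members named are the 4 with the largest share, those at the last 2 ranks and the first 2 left out, the 2 widest and 2 narrowest spans, for each comparison those called or, where none was, the 2 with the smallest p, and the 2 most negative component pairs. Others are said to be chosen after their values were seen.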

Additional observations from a re-analysis of the deposited data

Results flagged for a closer look

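Groups of 4 libraries were tested, those of a genotype for each named transcript and those of a coral for its library distances over the members. Of the 273 groups, 13 had a library whose distance from the nearest other was over 0.829 of the group's range (Dixon's 95% critical value). All 13 were for named transcripts, and chance alone gives about 1 in 20. OFAVBQ_DN221954_c1_g1 had 0.36 CPM in In4 (coral B1, inshore site, 30 °C), 20.3 CPM in In6 (B3, inshore, 30 °C) and 1.17 CPM in In7 (B4, inshore, 32 °C), each the highest of its 4 libraries and each within the level of its genotype described above. OFAVBQ_DN204544_c2_g3 had 3.66 CPM in In2 (B6, offshore, 30 °C), 42.5 CPM in In6 (B3, inshore, 32 °C) and 54.8 CPM in O2 (C2, offshore, 30 °C). The O2 library of coral C2 at the offshore site and 30 °C was also apart for OFAVBQ_DN200793_c3_g1, with 11.4 CPM, and for OFAVBQ_DN200793_c3_g2, with 17.7 CPM. OFAVBQ_DN200793_c3_g2 had 13.3 CPM in In7 (B4, inshore, 32 °C), the lowest of its 4. OFAVBQ_DN202327_c0_g3 had 30.9 CPM in In5 (B2, offshore, 32 °C) and 15.3 CPM in In7 (B4, offshore, 32 °C). OFAVBQ_DN206805_c0_g2 had 5.03 CPM in In7 (B4, inshore, 30 °C), and OFAVBQ_DN224191_c2_g2 had 111 CPM in In2 (B6, inshore, 30 °C). Of these libraries, B3 and B4 at the inshore site at 32 °C and B6 at the offshore site at 30 °C are among the 8 that stand apart over all transcripts.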

How the results depend on the processing

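Of the 200 members, 15 were chosen again with zeros allowed, 123 from the 30 °C and from the inshore-site libraries alone and 133 from the 32 °C libraries alone. With a mean of at least 20 CPM 77 remained. That floor leaves every share unchanged, so 77 is only the number of members that meet it. The other 10 alternatives kept 136 to 186, and leaving out each coral kept 176 to 186. The 1 call for heat became 0 without the low-count filter, with no replicate block, with a term for library numbers 1 to 16 and in library numbers 17 to 56 alone, and 3 without the libraries that stand apart. Leaving out each coral gave 0 to 1, and the 1 without C1 was a different member. The cause was not tested. Site gave 0 throughout, and so did origin, with or without each coral or genotype. Site by origin gave 1 with DESeq2 and with the library-number term, and 0 to 2 with each coral left out (1 without B6 or C6, 2 without C3). The In1 corals gave 7 without the low-count filter, 2 with DESeq2 and 0 to 2 with each coral left out (2 without A6). With no replicate block, 0 members were called in each of the fits for heat, site and site by origin. Genotype in place of coral as the block changed no count of members. Depth limits the levels under about 1 CPM, or 5.02 counts in the median library.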
